A study of Mus musculus with 8 samples.

Results

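CTCF and the cohesin complex shape chromosomes into loops, and the 10 genes described here encode that machinery: *Ctcf*, *Rad21*, *Smc1a*, *Smc3*, *Stag1*, *Stag2*, *Nipbl*, *Wapl*, *Pds5a* and *Pds5b*. They were found by symbol in the gene column of the count tables, and no value or threshold enters that rule, but the set was proposed with earlier results of these data known. All 10 were among the 26263 genes counted, and all 10 passed the filter on low counts that left 16399 genes for testing.

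Cohesin is a ring built from the ATPases SMC1A and SMC3 and the kleisin RAD21, with STAG1 or STAG2 bound to RAD21. NIPBL loads the ring and stimulates its ATPase, WAPL opens it and releases it from chromatin, and PDS5A and PDS5B bind RAD21 and take part both in release and in the protection of bound rings. CTCF is a zinc finger protein that binds a long DNA motif and halts loop-extruding cohesin, so that many loop and domain borders in embryonic stem cells and neural cells lie at CTCF sites. The same ring also holds sister chromatids together until cell division.

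RNA-seq was performed on embryonic stem cells (ESCs) and on the neural precursor cells (NPCs) obtained from them at day 12 of *in vitro* corticogenesis, a protocol that drives ESCs towards cortical fates. The ESC lines were male hybrids from blastocysts of reciprocal crosses, the C57BL/6 x JF1 line BJE2 (B/J, with the C57BL/6 mother) and the JF1 x C57BL/6 line JBE6 (J/B, with the JF1 mother), and each cross was thus represented by 1 line. There were 2 libraries for each of ESC B/J, ESC J/B, NPC B/J and NPC J/B, so that 4 ESC libraries were compared with 4 NPC libraries. ESCs were kept with LIF, BMP4 and a GSK3-β inhibitor, and NPCs were grown on Matrigel in a defined medium with B27 and dorsomorphin homolog 1, so that stage and culture conditions cannot be told apart. No source says that the libraries of a group came from separate cultures, and the p-values measure the spread between these libraries, which may be technical.

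Reads counted on genes numbered 22537138 in the shallowest library and 32706015 in the deepest, and the 10 genes had between 1794 reads (*Stag1*) and 14270 reads (*Rad21*) in a library. Values per library are given as CPM (counts scaled to the size of the library) normalized by TMM, a method that aligns libraries on the bulk of their genes, and log2 fold changes are NPCs against ESCs. The median change of all genes tested was 0.17 on this scale, 0.65 when libraries were scaled to their totals and 0.80 when they were scaled to *Gapdh*, *Gusb* and *Tbp*, the reference genes of the study's RT-qPCR. Not all of these references were constant between the stages. On the TMM scale *Gapdh* was lower in NPCs (log2 fold change -1.43, edgeR adjusted p = 1.42e-04), as was *Tbp* (-0.69, edgeR adjusted p = 0.00408). *Gusb* was not called (0.23, edgeR adjusted p = 0.427). With library totals *Gapdh* had 3833 to 5157 CPM in ESCs and 1954 to 2573 CPM in NPCs. Levels of marker lists were summed in CPM of library totals, not on the TMM scale. The markers called higher or lower are those of the TMM scale. Summed pluripotency markers spanned 5414 to 8721 CPM in ESCs and 115 to 412 CPM in NPCs, with 10 of 10 lower. Summed neural precursor markers spanned 220 to 283 CPM in ESCs and 693 to 1609 CPM in NPCs, with 7 of 8 higher (5 in B/J and 7 in J/B). The marker not called was *Pax6*, which the paper uses as a precursor marker (log2 fold change 1.77, edgeR adjusted p = 0.0606). Its ESC and NPC libraries overlapped. The NPC libraries also held more RNA of other cell types: 8 of 10 trophoblast markers were higher (76.5 to 193 CPM in ESCs, 1529 to 3913 CPM in NPCs), 8 of 10 fibroblast markers (1443 to 1835 and 2512 to 3939 CPM) and 7 of 8 neuron markers (279 to 375 and 323 to 1890 CPM). *Fn1* of the fibroblast list and *Stmn2* of the neuron list were lower in NPCs (log2 fold change -0.39 and -1.51, edgeR adjusted p = 0.0281 and 0.00950). These 2 genes made up most of the ESC sums of their lists, with 1431 to 1767 CPM and 145 to 232 CPM. No marker of these lists was at 0 in all NPC libraries, and 2 trophoblast markers were at 0 in all ESC libraries. Of the NPC libraries, B/J replicate 1 had the lowest neural precursor and neuron sums and the highest trophoblast sum. In bulk RNA, fewer cells of a type and less RNA per cell cannot be told apart, and the part of the mixture of cells in the changes below was not tested.

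Of the 10 genes, 7 had a promoter sequence of 300 bases in the RefSeq table used (GRCm38.p6), from 250 bases before to 50 bases after the start site, and each of these sequences matched the GRCm39 genome exactly once. The 4 promoters shown are those of the genes that were lower in NPCs, so that their sequences can be compared with each other. Capitals mark matches, on either strand, to a YY1-type motif (AANATGGC), a CCAAT box (CCAAT) or an E2F-type motif (TTTCCCGC), and the last 50 bases of each line lie after the start site. *Ctcf* lies on chromosome 8 (chr8:106362922-106409564, plus strand, GENCODE on GRCm39) and its promoter sequence at chr8:106362920-106363219. *Smc1a* is X-linked (chrX:150799424-150846390, plus strand), with its promoter at chrX:150799174-150799473. *Smc3* lies at chr19:53588818-53634295 on the plus strand, with its promoter at chr19:53588577-53588876. *Wapl* lies at chr14:34395458-34469941 on the plus strand, with its promoter sequence at chr14:34395635-34395934. Relative to the canonical transcript of GENCODE, the RefSeq start site lies 248 bases downstream for *Ctcf* and 427 bases downstream for *Wapl*, so that nearly all of the *Ctcf* sequence and all of the *Wapl* sequence lie within the GENCODE gene.
Ctcf: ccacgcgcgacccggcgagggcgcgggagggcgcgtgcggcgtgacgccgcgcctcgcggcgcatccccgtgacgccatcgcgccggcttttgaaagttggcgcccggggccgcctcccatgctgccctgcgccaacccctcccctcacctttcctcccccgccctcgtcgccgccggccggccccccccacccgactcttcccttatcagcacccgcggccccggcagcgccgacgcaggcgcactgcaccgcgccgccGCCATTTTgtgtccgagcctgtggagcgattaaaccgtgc
Smc1a: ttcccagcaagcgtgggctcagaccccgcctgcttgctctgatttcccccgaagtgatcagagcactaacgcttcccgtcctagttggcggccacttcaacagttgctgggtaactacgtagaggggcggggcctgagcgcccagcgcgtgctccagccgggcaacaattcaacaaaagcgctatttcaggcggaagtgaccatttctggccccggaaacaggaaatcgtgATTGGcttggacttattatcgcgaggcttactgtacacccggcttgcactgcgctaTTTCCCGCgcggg
Smc3: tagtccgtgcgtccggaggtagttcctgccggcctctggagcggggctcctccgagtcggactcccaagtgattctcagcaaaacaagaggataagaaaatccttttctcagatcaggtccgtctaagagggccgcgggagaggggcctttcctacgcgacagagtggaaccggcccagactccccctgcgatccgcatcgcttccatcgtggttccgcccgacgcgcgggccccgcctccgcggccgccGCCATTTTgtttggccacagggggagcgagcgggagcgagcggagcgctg
Wapl: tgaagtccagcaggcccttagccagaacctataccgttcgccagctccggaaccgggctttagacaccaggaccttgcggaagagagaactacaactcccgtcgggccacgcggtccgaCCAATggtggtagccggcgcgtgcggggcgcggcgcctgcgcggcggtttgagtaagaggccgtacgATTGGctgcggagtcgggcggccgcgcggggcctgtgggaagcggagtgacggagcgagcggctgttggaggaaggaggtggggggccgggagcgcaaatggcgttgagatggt
The 7 promoters were rich in CpG, with a median GC content of 73.7% (58.3 to 80.3%) and a median of 41 CpG dinucleotides (23 to 55), against medians of 52.7% and 7 over all 32851 promoters of the table. *Ctcf* and *Smc3* had the YY1-type motif in the same 8 letters just downstream of the RefSeq start site, beginning at base 10 and base 0 after it, and both matches were on the minus strand. The YY1-type motif was also found at *Stag1* and *Pds5b*, in 4 of the 7 promoters and in 6.05% of all promoters. A CCAAT box was found in 4 of the 7 (*Smc1a*, *Stag1*, *Wapl* and *Pds5b*) and in 37.4% of all promoters, and *Wapl* and *Pds5b* each had a pair of them. The E2F-type motif was found at *Smc1a* and *Stag1*, 2 of the 7, and in 1.07% of all promoters. A GC box (GGGCGG) was found in 7 of 7 and in 35.7% of all promoters. A CRE core (TGACG) was found in 3 of the 7 (*Ctcf*, *Wapl* and *Pds5a*) and in 20.8% of all promoters. An ETS-type motif (CCGGAAG) was found in 0 of the 7 and in 8.86% of all promoters, and an NRF1-type motif in 0 of the 7 and in 0.971%. The motifs were chosen after the sequences had been seen, the 7 promoters differ from the rest in GC content, and a match is not a bound site. The YY1-type and E2F-type matches occurred both in genes that were lower in NPCs and in genes that did not pass the test.

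The first comparison asked whether expression of the loop machinery changes upon neural commitment. *Ctcf*, *Smc1a*, *Smc3* and *Wapl* were lower in NPCs than in ESCs, with log2 fold changes from -1.24 (*Wapl*) to -0.91 (*Smc1a*), and their ESC and NPC libraries did not overlap. The other 6 genes, *Rad21*, *Stag1*, *Stag2*, *Nipbl*, *Pds5a* and *Pds5b*, did not pass the test, and their libraries overlapped. Thus 0 genes were higher and 4 were lower at an adjusted p below 0.05 (edgeR's quasi-likelihood test, Benjamini-Hochberg adjustment over all 16399 genes), where 37.5% of all genes were higher, 31.9% were lower and 69.4% were called in either direction. The 4 of 10 that were lower are close to the share of all genes that were lower. The median of the 10 log2 fold changes was -0.34, against 0.17 over all genes. Non-overlap of 4 ESC libraries above 4 NPC libraries was seen for 4 of the 10 genes and for 31.2% of all genes on the TMM scale, and for the same number of these genes and 20.5% of all genes on library totals. The opposite order, NPCs above ESCs without overlap, was seen for 0 of the 10 genes on both scales and for 35.3% of all genes on the TMM scale and 46.7% on library totals.

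**Figure D1:**
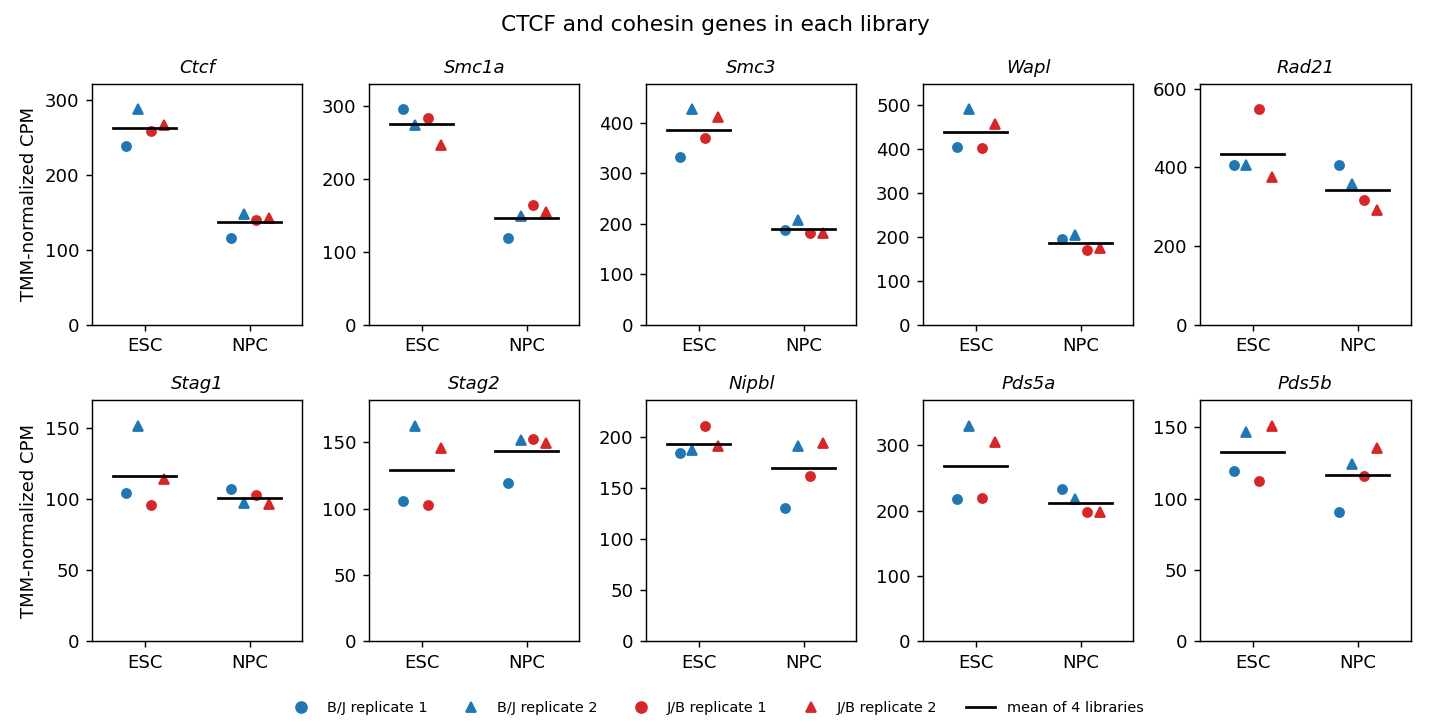
TMM-normalized CPM of the 10 genes in the 8 libraries, by stage on the horizontal axis, with colour for the cross, symbol for the replicate number and a line at the mean of 4 libraries. The ESC values of Ctcf (239 to 287), Smc1a, Smc3 and Wapl lie above every NPC value (Ctcf 116 to 147) on this scale, and the other 6 genes overlap between the stages.

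*Ctcf*, which encodes the factor at loop anchors, had 239 and 287 CPM in the ESC B/J libraries and 259 and 267 CPM in the ESC J/B libraries, and 116 and 147 CPM in NPC B/J and 140.1 and 143 CPM in NPC J/B. Every ESC library was thus above every NPC library, and the crosses lay close together within a stage. The mean was 263 ± 20.04 CPM in ESCs and 137 ± 13.9 CPM in NPCs (SD, n = 4), and *Ctcf* fell by 48.1% (log2 fold change -0.95, SE 0.132, 95% interval -1.25 to -0.64, edgeR adjusted p = 4.51e-04). Its change ranked at percentile 22.9 of all genes tested, counted from the strongest decrease. Scaled to library totals the decrease was -0.47 (edgeR adjusted p = 0.0191), and scaled to *Gapdh*, *Gusb* and *Tbp* it was -0.31 and no longer passed the test (edgeR adjusted p = 0.149). Of its exon bases in the annotation, 6.29% are shared with a gene on the opposite strand, and the strand setting of the counting was not stated.

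Of the 3 core ring genes, both ATPase genes were lower in NPCs. *Smc3* had 332.8, 427, 369.9 and 412 CPM in ESCs (B/J replicates 1 and 2, then J/B replicates 1 and 2) and 187, 208, 182 and 181 CPM in NPCs in the same order. The lowest ESC library was above the highest NPC library by more than the whole range of the NPC values. *Smc3* fell by 50.8%, from 385 ± 42.6 to 189.7 ± 12.6 CPM (log2 fold change -1.02, SE 0.130, edgeR adjusted p = 2.84e-04). *Smc1a*, which encodes the partner ATPase, had 295, 274, 284 and 247 CPM in ESCs and 119 and 149 CPM (B/J) and 163 and 155 CPM (J/B) in NPCs. The lowest of the NPC libraries was NPC B/J replicate 1, and again no NPC library reached the ESC values. *Smc1a* fell by 46.8%, from 275 ± 20.8 to 147 ± 19.1 CPM (log2 fold change -0.91, SE 0.128, edgeR adjusted p = 4.70e-04). With libraries scaled to totals *Smc3* was at -0.55 and *Smc1a* at -0.43 (edgeR adjusted p = 0.00939 and 0.0173), and scaled to *Gapdh*, *Gusb* and *Tbp* at -0.40 and -0.27, where neither passed the test (0.0693 and 0.144).

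*Rad21* (chr15:51825636-51855179, minus strand), which encodes the kleisin that closes the ring, had 405 and 406 CPM in ESC B/J, 548 and 376 CPM in ESC J/B, 407 and 358 CPM in NPC B/J and 317 and 292 CPM in NPC J/B. The high value belonged to ESC J/B replicate 1, and the stages overlapped because the first NPC B/J library was at the level of the ESC B/J libraries. The mean was 434 ± 77.3 CPM in ESCs and 343 ± 50.4 CPM in NPCs, and the difference did not pass the test (log2 fold change -0.34, 95% interval -0.69 to 0.00036, edgeR adjusted p = 0.0691). Its sign depended on the scaling: it was 0.14 with library totals and 0.29 with *Gapdh*, *Gusb* and *Tbp*.

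*Wapl*, which encodes the release factor, showed the greatest decrease of the 10. It had 404 and 490.3 CPM in ESC B/J, 401 and 457 CPM in ESC J/B, 196 and 205 CPM in NPC B/J and 169 and 175 CPM in NPC J/B. The ESC values were more than those of any NPC library by a wide margin, with 438 ± 43.3 CPM in ESCs and 186 ± 17.2 CPM in NPCs. *Wapl* fell by 57.6% (log2 fold change -1.24, SE 0.124, edgeR adjusted p = 9.20e-05), at percentile 17.1 of all genes. It was the only one of the 10 called under each of the 20 alternative settings, with -0.76 for library totals and -0.61 for *Gapdh*, *Gusb* and *Tbp* (edgeR adjusted p = 0.00150 and 0.0114). Some 4.14% of its exon bases are shared with a gene on the opposite strand.

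*Nipbl* (chr15:8319309-8473990, minus strand), the loader gene that acts against release by WAPL, had 184, 187, 211 and 191 CPM in ESCs and 130.1, 191, 162 and 195 CPM in NPCs, in the order of B/J and then J/B replicates. Both NPC libraries numbered 1 were below the ESC range and both numbered 2 were within it. The stages did not differ past the threshold, with 193 ± 12.0 and 169 ± 30.0 CPM (log2 fold change -0.19, 95% interval -0.55 to 0.17, edgeR adjusted p = 0.295). The interval leaves room for a decrease of the size of 0.55 on the log2 scale, and the sign turned with both other scalings (0.29 for library totals, 0.46 for the reference genes).

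The STAG subunits, of which each ring carries 1, showed no change that passed the test. *Stag1* (chr9:100479740-100841428, plus strand) had 104, 151, 95.7 and 114 CPM in ESCs and 107, 96.8, 102 and 96.5 CPM in NPCs. Its NPC libraries lay within the ESC range, and the log2 fold change was -0.20 (95% interval -0.55 to 0.15, edgeR adjusted p = 0.270). *Stag2* (chrX:41238146-41368132, plus strand), X-linked like *Smc1a*, had 106, 162, 103 and 146 CPM in ESCs and 119.7, 152, 153 and 149.7 CPM in NPCs. In ESCs both libraries numbered 2 were above both numbered 1, and in NPCs the first B/J library stood below the other 3. *Stag2* was the only gene of the 10 with a log2 fold change above 0 (0.15, 95% interval -0.28 to 0.58, edgeR adjusted p = 0.490). It passed the test as higher in NPCs with library totals (0.62, edgeR adjusted p = 0.0277) and with the reference genes (0.77, edgeR adjusted p = 0.0215), while *Stag1* turned to 0.27 and 0.42 without passing.

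The PDS5 genes, whose products bind RAD21 beside WAPL, did not pass the test either. *Pds5a* (chr5:65763053-65864080, minus strand) had 218, 329.9, 220.2 and 306 CPM in ESCs and 234, 218, 198 and 198 CPM in NPCs. The ESC libraries fell into a lower pair numbered 1 and a higher pair numbered 2, and the NPC values overlapped the lower pair. Its log2 fold change was -0.34 (95% interval -0.74 to 0.058, edgeR adjusted p = 0.109). *Pds5b* (chr5:150597204-150734177, plus strand) had 119.7, 147, 112 and 151 CPM in ESCs and 90.4, 125, 116 and 136 CPM in NPCs, and all but the first NPC library lay in the ESC range. Its log2 fold change was -0.19 (95% interval -0.58 to 0.20, edgeR adjusted p = 0.339). Both turned positive with library totals (0.13 and 0.29) and with the reference genes (0.27 and 0.45), without passing the test.

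**Figure D2:**
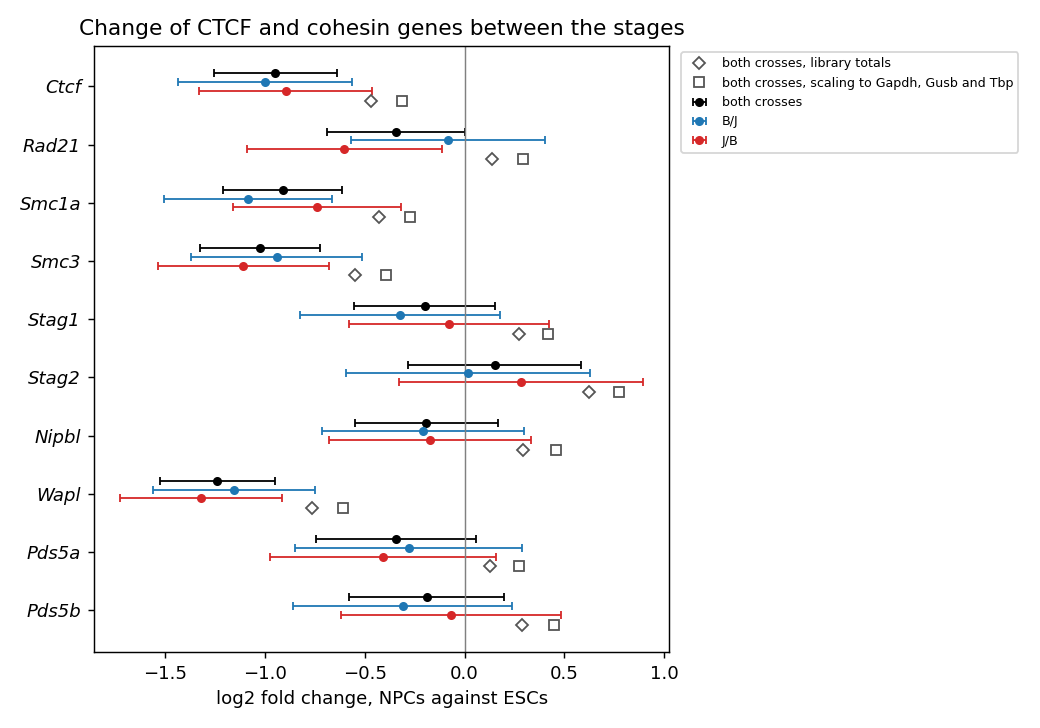
Log2 fold change of NPCs against ESCs for the 10 genes on the horizontal axis, with 95% intervals from edgeR for both crosses together (black), B/J (blue) and J/B (red), and open symbols for the change over both crosses under 2 other scalings. Ctcf, Smc1a, Smc3 and Wapl lie below 0 under each of these for both crosses together, although with Gapdh, Gusb and Tbp only Wapl (-0.61) passed the test, while Rad21, Stag1, Nipbl, Pds5a and Pds5b change sign with the scaling.

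Next, the change between the stages was measured within each cross, each of which is 1 line. In B/J, 0 of the 10 genes were higher and 4 were lower, where 30.1% of all genes were higher, 25.6% were lower and 55.8% were called in either direction. In J/B, 0 were higher and 5 were lower, where 29.1% of all genes were higher, 25.3% were lower and 54.5% were called in either direction. *Ctcf* changed by -0.999 in B/J and -0.89 in J/B (edgeR adjusted p = 0.00325 and 0.00548). *Smc3* changed by -0.94 and -1.11 (edgeR adjusted p = 0.00391 and 0.00209), and *Wapl* by -1.15 and -1.32 (edgeR adjusted p = 0.00129 and 8.78e-04). *Smc1a* changed by -1.08 in B/J and -0.74 in J/B (edgeR adjusted p = 0.00202 and 0.0107). These 4 genes were thus lower in both lines on the TMM scale. With library totals, *Ctcf* passed the test in neither line (-0.53 in B/J and -0.41 in J/B), *Smc3* did not pass in B/J (-0.47) and *Smc1a* did not pass in J/B (-0.25). With *Gapdh*, *Gusb* and *Tbp* as the scale, *Smc1a* in J/B was at 0.016 and only *Wapl* in B/J remained called as lower. *Rad21* was the fifth gene lower in J/B (-0.60, edgeR adjusted p = 0.0416) and was near 0 in B/J (-0.08, edgeR adjusted p = 0.746). This call was lost with library totals (-0.11, edgeR adjusted p = 0.651), and also, at about the same size, with no filter on low counts (-0.56, edgeR adjusted p = 0.0549) and in a fit of only the 4 J/B libraries (-0.61, edgeR adjusted p = 0.0913). Without ESC J/B replicate 1, *Rad21* was at -0.31 in J/B (edgeR adjusted p = 0.275), and it kept its call only when ESC J/B replicate 2 was the library left out (-0.83). *Smc1a* in J/B also lost its call without ESC J/B replicate 1 (-0.63, edgeR adjusted p = 0.0566) or without NPC J/B replicate 2 (-0.70, edgeR adjusted p = 0.0634).

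The 2 crosses were then compared with each other. No gene of the 10 differed between crosses in its change between stages, in ESCs or in NPCs (edgeR quasi-likelihood test, 0 adjusted calls and 0 at an unadjusted p below 0.05 in each of the 3 comparisons, and 0 calls by DESeq2 and by limma-voom). Over all genes 0%, 0% and 0.0061% were called in these comparisons. The differences of the stage change, J/B minus B/J, ran from -0.52 for *Rad21* (95% interval -1.20 to 0.17) to 0.35 for *Smc1a* (-0.24 to 0.94). For *Rad21*, called in J/B and not in B/J, the difference between the lines did not pass the test (edgeR unadjusted p = 0.120). In ESCs, J/B minus B/J ran from -0.28 for *Stag1* (-0.78 to 0.22) to 0.19 for *Rad21* (-0.30 to 0.67), and in NPCs from -0.33 for *Rad21* (-0.82 to 0.16) to 0.25 for *Smc1a* (-0.17 to 0.66). For *Ctcf* the crosses differed by -0.0019 in ESCs (-0.43 to 0.43) and 0.10 in NPCs (-0.33 to 0.53). The intervals that reached furthest from 0 were those of *Rad21* (to -1.20) and *Stag2* (to 1.13) for the stage change, of *Stag1* (to -0.78) and *Rad21* (to 0.67) in ESCs, and of *Rad21* (to -0.82) and *Pds5b* (to 0.77) in NPCs.

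*Smc1a* and *Stag2* lie on the X chromosome, and the single X of a male comes from the mother, so that these genes were read from the C57BL/6 X in B/J and from the JF1 X in J/B. The difference J/B minus B/J for *Smc1a* was -0.10 in ESCs (95% interval -0.52 to 0.32) and 0.25 in NPCs. For *Stag2* it was -0.11 in ESCs (-0.72 to 0.50) and 0.16 in NPCs (-0.46 to 0.77). Neither of these X-linked genes differed past the threshold between the strains of the X.

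Ratios of 2 genes within a library do not depend on how libraries are scaled, and 6 ratios between partners or opposing factors were compared. The smallest p that 4 against 4 libraries allow is 0.0286, and with adjustment over 6 ratios none was below 0.114. The ratio of *Nipbl* to *Wapl* counts, loader against releaser, was 0.456, 0.381, 0.525 and 0.418 in the ESC libraries and 0.663, 0.930, 0.955 and 1.11 in the NPC libraries. Every NPC library was above every ESC library, and the share of other gene pairs with such non-overlap was not computed. On the TMM scale *Wapl* changed by -1.24 and *Nipbl* by -0.19. The mean ratio went from 0.445 ± 0.0614 to 0.915 ± 0.187 (SD, n = 4), a log2 difference of 1.03 (two-sided exact permutation test, p = 0.0286, adjusted p = 0.114). It was 0.91 in B/J and 1.14 in J/B, and 0.70 among libraries numbered 1 and 1.35 among those numbered 2.

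The ratio of *Ctcf* to *Rad21* counts was 0.590, 0.708, 0.473 and 0.710 in ESCs and 0.286, 0.411, 0.443 and 0.489 in NPCs. Only ESC J/B replicate 1, the library with high *Rad21*, was below an NPC library. The log2 difference was -0.62 (exact permutation test, p = 0.0571, adjusted p = 0.114), with -0.92 in B/J and -0.32 in J/B. The ratio of *Stag1* to *Stag2* was 0.980, 0.931, 0.930 and 0.784 in ESCs and 0.895, 0.637, 0.670 and 0.645 in NPCs. It was lower in 3 NPC libraries than in any ESC library, and NPC B/J replicate 1 was within the ESC range (log2 difference -0.36, exact permutation test, p = 0.0571, adjusted p = 0.114). The decrease was of like size in B/J (-0.34) and J/B (-0.38).

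The remaining 3 ratios overlapped widely between the stages. *Stag1* and *Stag2* together over *Rad21* ranged from 0.363 to 0.772 in ESCs and from 0.558 to 0.844 in NPCs (log2 difference 0.35, exact permutation p = 0.229, adjusted p = 0.343). This ratio differed by -0.023 in B/J and by 0.72 in J/B. *Pds5a* over *Pds5b* ranged from 1.82 to 2.25 and from 1.46 to 2.58 (log2 difference -0.13, exact permutation p = 0.514, adjusted p = 0.571). *Smc1a* over *Smc3*, the ATPase partners, ranged from 0.598 to 0.887 and from 0.637 to 0.898 (log2 difference 0.11, exact permutation p = 0.571, adjusted p = 0.571). For both of these ratios the crosses had opposite signs, as had the libraries of the 2 numbers. *Pds5a* over *Pds5b* differed by 0.071 in B/J and -0.33 in J/B, and by 0.15 among libraries numbered 1 and -0.41 among those numbered 2. *Smc1a* over *Smc3* differed by -0.16 in B/J and 0.37 in J/B, and by -0.12 and 0.34 among libraries numbered 1 and 2.

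**Figure D3:**
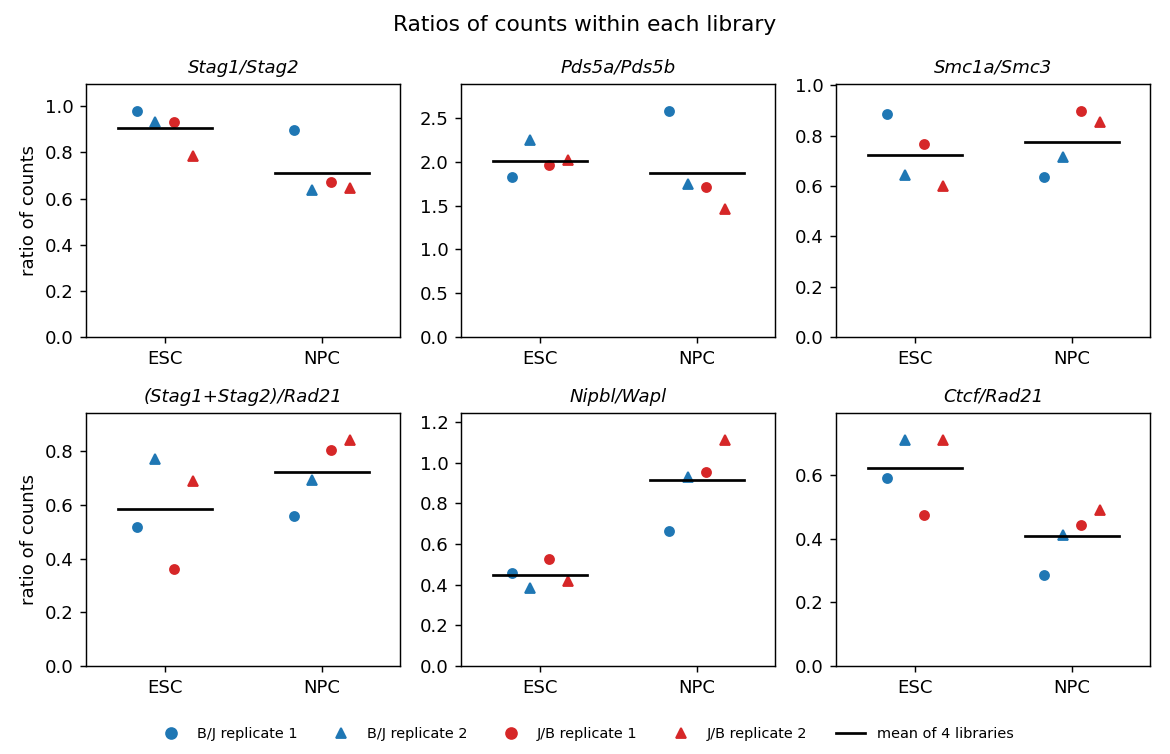
Ratios of the counts of 2 genes within each of the 8 libraries, by stage on the horizontal axis, with colour for the cross, symbol for the replicate number and a line at the mean of 4 libraries. Nipbl/Wapl is the 1 ratio of the 6 whose stages do not overlap (0.381 to 0.525 in ESCs, 0.663 to 1.11 in NPCs), and these ratios do not change with the scaling of libraries.

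Among the 6 genes that did not pass the test, some of the spread followed the replicate number. In ESCs, replicate 2 was above replicate 1 for *Stag2* by 0.62 (B/J) and 0.50 (J/B) on the log2 scale, for *Pds5a* by 0.60 and 0.47, for *Stag1* by 0.54 and 0.25 and for *Pds5b* by 0.30 and 0.43. In NPCs the same difference for *Stag2* was 0.34 and -0.03, for *Pds5a* -0.10 and 0.00, and for *Stag1* -0.15 and -0.08, while *Pds5b* kept its direction with 0.46 and 0.23. *Nipbl* showed the other order, with 0.02 and -0.14 in ESCs and 0.56 and 0.27 in NPCs. Of the 10 genes, 7 were higher in replicate 2 in both ESC lines and 1 was lower in both, against 36.1% of 14678 genes counted in every library that were higher in both and 36.1% that were lower in both. In NPCs 4 were higher and 2 lower in both, against 32.5% and 33.1% of these genes. Fits of the libraries of 1 number alone were chosen after the data had been seen. With those numbered 1, 4 of the 10 genes were lower and 0 higher in NPCs, where 20.8% of all genes were lower. With those numbered 2, 7 were lower and 0 higher, where 34.4% of all genes were lower, and among the 7 were *Pds5a* (-0.62, edgeR adjusted p = 8.95e-04) and *Stag1* (-0.45, edgeR adjusted p = 0.0156). What the number stands for is not given, the libraries were made with either of 2 kits and read on either of 2 instruments, and the part of these in the spread was not tested.

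Levels of different genes can be compared only per length, and CPM were divided by the union of each gene's exons in kb (GENCODE on GRCm39, not the refGene models used for counting). In ESCs *Rad21* was highest with 99.1 ± 17.7 CPM per kb, followed by *Smc3* with 67.1 ± 7.41, *Wapl* with 59.1 ± 5.83, *Ctcf* with 44.8 ± 3.41 and *Smc1a* with 27.7 ± 2.09. The ranges of *Smc3* and *Wapl* overlapped, and the other neighbours in this order did not. Below them lay *Nipbl* (14.0 CPM per kb), *Pds5a* (12.3), *Stag2* (11.7), *Pds5b* (11.6) and *Stag1* (9.52), where each gene overlapped the next. In NPCs *Rad21* had 78.5 ± 11.5 CPM per kb, *Smc3* 33.0 ± 2.19, *Wapl* 25.1 ± 2.32, *Ctcf* 23.2 ± 2.37 and *Smc1a* 14.8 ± 1.92, with overlap between *Wapl* and *Ctcf*. The remaining 5 ran from 13.0 CPM per kb for *Stag2* to 8.25 for *Stag1*, and *Smc1a* overlapped *Stag2*. *Rad21* was first and *Smc3* second in both stages also with the longest or the canonical transcript as the length, and the top 5 were the same genes. The order of *Wapl*, *Ctcf* and *Smc1a* in NPCs and the order below the top 5 changed with the length, and in ESCs *Wapl* overlapped *Ctcf* and *Ctcf* overlapped *Smc1a* with both transcript lengths. The union for *Pds5a* (21820 bases) is more than the length of its longest transcript (9168 bases), so that its value per kb on the union is low.

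The wider pathway was described from lists chosen with earlier results of these data known, and their counts stand beside the shares of all genes, of which 31.9% were lower and 37.5% higher on the TMM scale, 20.9% and 48.9% with library totals and 17.2% and 51.6% with the reference genes. Of 10 cohesin regulators, 7 were lower and 0 higher in NPCs on the TMM scale (median log2 fold change -1.69), and 6 were lower and 2 higher both with library totals (median -1.22) and with the reference genes (median -1.06). *Esco2*, which acetylates SMC3 in S phase, went from 257 ± 46.2 to 22.4 ± 4.55 CPM (log2 fold change -3.51, edgeR adjusted p = 1.85e-05). *Cdca5*, which encodes sororin, the antagonist of WAPL at replicated chromatids, was lower by a log2 fold change of -2.59 (edgeR adjusted p = 1.23e-04), and *Espl1*, which encodes separase, by -2.18 (edgeR adjusted p = 6.48e-05). Of these regulators *Mau2*, whose product is the partner of NIPBL in loading, was not called on the TMM scale (0.33, 95% interval 0.013 to 0.64, edgeR adjusted p = 0.0608) and was higher with library totals (0.81, edgeR adjusted p = 0.00115) and with the reference genes (0.97, edgeR adjusted p = 0.00149), and it is named here after its value was seen. *Mau2* gained a call as higher in 7 of 20 alternative settings, both scalings included, and turned in 0 (log2 fold change 0.14 to 0.97). Genes for proliferation moved in the same direction: 15 of 15 were lower on the TMM scale (log2 fold changes -2.20 to -0.62, median -1.72), 13 with library totals and 12 with the reference genes, led by *Mcm2* (-2.20), *Mcm5* (-2.18) and *Mcm3* (-2.12), subunits of the replicative helicase. Their summed level, in CPM of library totals, spanned 5261 to 6191 CPM in ESCs and 2094 to 3388 CPM in NPCs. The part of proliferation in the lower *Ctcf*, *Smc1a*, *Smc3* and *Wapl* levels was not tested.

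Condensin, the related SMC complex that compacts mitotic chromosomes, was described together with the SMC5/6 complex. Of these 10 genes, 8 were lower and 0 higher on the TMM scale (median -0.84, against 31.9% of all genes lower), 5 lower and 1 higher with library totals (median -0.36, against 20.9%) and 3 lower and 1 higher with the reference genes (median -0.20, against 17.2%). On the TMM scale the changes were led by *Smc2* at -1.52 (edgeR adjusted p = 9.87e-05), *Ncapd2* at -1.45 and *Ncapd3* at -1.32. Of 9 CTCF partners and loop factors, 2 were higher and 5 lower on the TMM scale (median -0.43). With library totals 4 were higher and 1 lower (median 0.043), and with the reference genes 4 were higher and 0 lower (median 0.19). These shares of higher genes lie near or below those of all genes (37.5%, 48.9% and 51.6%), and the same holds for the lower genes under both other scalings (20.9% and 17.2% of all genes). *Vezf1*, a zinc finger factor, went from 37.0 ± 9.18 to 134 ± 35.0 CPM (log2 fold change 1.83, edgeR adjusted p = 3.36e-04), and *Top2b*, the topoisomerase of postmitotic cells found at loop anchors, from 107 ± 9.03 to 285 ± 67.6 CPM (1.40, edgeR adjusted p = 1.64e-04). *Patz1* was lower (-1.12, edgeR adjusted p = 0.00185).

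The germline paralogues were at low levels in both stages. *Rec8*, the meiotic kleisin, had 9.93 ± 3.58 CPM in ESCs against 1.87 ± 0.386 CPM in NPCs and was lower (log2 fold change -2.40, edgeR adjusted p = 4.67e-04). *Stag3*, the meiotic STAG subunit, had 11.9 ± 3.79 and 8.20 ± 2.45 CPM and *Smc1b* 1.16 ± 0.805 and 2.30 ± 1.88 CPM, and neither passed the test over both crosses (edgeR adjusted p = 0.0827 and 0.132). Within the crosses their signs differed: *Smc1b* was higher in B/J (2.41, edgeR adjusted p = 0.0197) and at -0.67 in J/B, and *Stag3* was lower in J/B (-1.17, edgeR adjusted p = 0.0222) and at 0.12 in B/J. Neither difference between the crosses passed the test after adjustment (edgeR unadjusted p = 0.0128 for *Smc1b* and 0.0295 for *Stag3*). *Smc1b* had 15 to 157 reads per library. The *Stag3* change turned from -0.53 to 0.099 with the reference genes. *Rad21l* (0 to 6 reads per library) and *Ctcfl* (1 to 15 reads), the paralogues of *Rad21* and *Ctcf*, did not pass the filter on low counts.

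**Figure D4:**
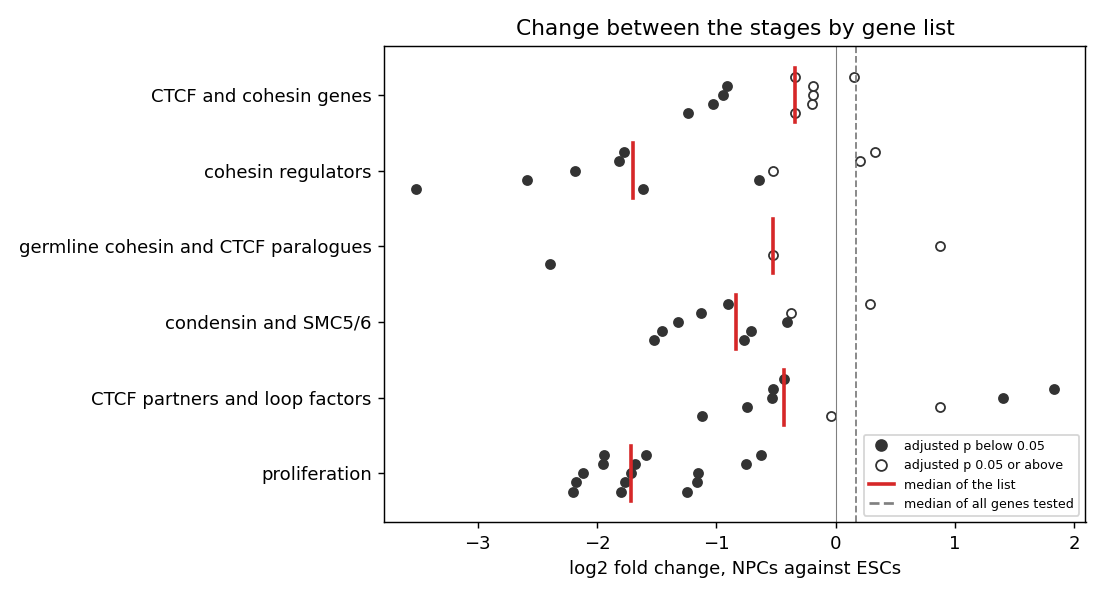
Log2 fold change of NPCs against ESCs on the TMM scale for each gene of the 10 CTCF and cohesin genes and of 5 further lists, with filled points for an adjusted p below 0.05 by edgeR, red lines at the list medians and a dashed line at the median of all genes (0.17). The 15 proliferation genes all lie below 0 and the CTCF and cohesin genes have a median of -0.34, and with library totals this median is 0.13.

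The 5 genes whose pattern over the 8 libraries was most like that of *Ctcf* among 14668 other genes counted in every library were *U2surp*, *Sumo2*, *Nucks1*, *Nfyb* and *Ppp1cc*, with Pearson's r of log2 values from 0.995 to 0.999. The 8 libraries form 2 stages, so that r mostly reflects the difference between stages, and it is given as a description. *U2surp* had 337, 414, 381 and 382 CPM in ESCs and 136, 186, 175 and 177 CPM in NPCs, and like *Ctcf* it was lowest in NPC B/J replicate 1 and highest in ESC B/J replicate 2. The log2 fold changes of the 5 genes ran from -1.43 for *Nucks1* to -0.92 for *Nfyb*.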

How the data were processed

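RNA-seq of ESCs and NPCs from 2 reciprocal crosses was analysed in 8 libraries, 2 in each of 4 groups. The authors mapped paired-end reads with TopHat2 to mm39 masked at SNPs, with an annotation based on refGene and the fr-firststrand setting, and filtered for properly paired reads (mapping quality 20 or more). The values they deposited are raw counts per gene for 26263 genes, over both alleles together, with 5 closing entries that name no gene. These entries were left out of totals and tests (no feature 5.76% to 10.8% of each library, ambiguous 0.355% to 0.554%). The submitters' processing notes also name HTSeq, DESeq2 and edgeR. Their settings, the use of strand in counting included, were not stated.

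Totals on genes were 22537138 to 32706015 reads per library, and at the lowest count of the 10 genes (1794 reads) the spread between libraries exceeded counting error. In R 4.3.3 with edgeR 4.0.16, genes were kept by filterByExpr (minimum count 10), which left 16399 genes, scaled by TMM (factors 0.820 to 0.885 in ESCs and 1.14 to 1.21 in NPCs) and fitted with 1 mean per group and robust quasi-likelihood dispersions (common dispersion 0.113). Benjamini-Hochberg adjustment covered the whole set of genes tested, and 0.05 was the threshold. Ratios of counts within a library were compared with two-sided exact permutation tests of 4 against 4 libraries, adjusted over 6 ratios. The code was checked on simulated data.

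The 10 genes and all lists were chosen with earlier results of these data known. Named besides the 10 genes were at most 3 genes per list with the largest absolute change and a mean of at least 1 CPM, the germline list in full, and the 5 genes most like *Ctcf*. *Mau2*, *Fn1*, *Stmn2* and *Pax6* were named outside this rule, after their values were seen. Alternatives were library totals, reference genes (*Gapdh*, *Gusb* and *Tbp*) as the scale, RLE factors, DESeq2 1.42.0, limma-voom (limma 3.58.1), no low-count filter, a mean of at least 1 CPM, a replicate block, only the 4 libraries compared, a 2-fold threshold in addition, each library left out and, for ratios, pooled counts. Added after seeing the data were a block within each stage, libraries of 1 replicate number alone and canonical transcript lengths. Replicates of a group differed by more than sampling noise. Positions came from GENCODE on GRCm39 and promoter sequences from RefSeq. Figures were drawn with matplotlib 3.10.9.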

Additional observations from a re-analysis of the deposited data

Results flagged for a closer look

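*Stag2* was singled out because 1 of the 4 NPC libraries stood far from the others: NPC B/J replicate 1 had 119.7 CPM and the other 3 had 149.7 to 153 CPM, and the gap to the nearest library was 0.909 of the whole range. The *Stag1*/*Stag2* ratio was singled out by the same library, with 0.895 against 0.637 to 0.670 in the other 3 NPC libraries, and its gap was 0.872 of the range. These were 2 of 32 sets of 4 libraries examined, and chance alone gives about 1 in 20. Without this library the log2 difference of the *Stag1*/*Stag2* ratio between the stages was -0.47, against -0.36 with all 8 libraries. It was also the lowest NPC library for *Ctcf*, *Smc1a*, *Nipbl* and *Pds5b*, and the highest for *Rad21*, *Stag1* and *Pds5a*.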

How the results depend on the processing

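The scaling of libraries decided most of what changed. With library totals, 5 of the 10 genes were called between the stages over both crosses (1 higher, 4 lower, against 48.9% and 20.9% of all genes). In B/J 2 were called and in J/B also 2 (all lower, against 15.8% and 15.2%). With *Gapdh*, *Gusb* and *Tbp*, 2 were called over both crosses (1 higher, 1 lower, against 51.6% and 17.2% of all genes), with 1 in B/J (lower, against 14.2%) and 1 in J/B (higher, against 44.3%). Signs turned for *Rad21* (0.14 and 0.29, totals and reference genes), *Stag1* (0.27 and 0.42), *Nipbl* (0.29 and 0.46), *Pds5a* (0.13 and 0.27), *Pds5b* (0.29 and 0.45), *Rad21* in B/J (0.38 and 0.42) and, with the reference genes only, *Rad21* in J/B (0.16), *Smc1a* in J/B (0.016) and *Stag3* (0.099). The median change of all genes moved with these scalings and, to 0.41, with no low-count filter. With a 2-fold threshold in addition, 2 genes were called, as lower, in each comparison of stages, against 20.6% of all genes over both crosses, 19.0% in B/J and 18.7% in J/B.

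Leaving out 1 library gave 4 to 5 calls over both crosses (26.9% to 29.5% of all genes were lower), 4 to 4 in B/J (17.1% to 25%), 3 to 5 in J/B (15.3% to 23.8%) and 0 in the comparisons of crosses. Without ESC J/B replicate 1 or NPC J/B replicate 2, 3 genes were called in J/B (19.6% and 15.3%), as *Smc1a* and *Rad21* were lost; *Rad21* in J/B kept its call only without ESC J/B replicate 2 (-0.83). *Rad21* in B/J ranged from -0.17 to 0.0074. Over both crosses the 6 genes not called kept their sign but moved by over 1.5 times: *Stag1* from -0.32 to -0.049 and *Stag2* from 0.018 to 0.32 (without ESC B/J replicate 1 and 2), *Nipbl* from -0.35 to -0.070 (NPC B/J replicate 2 and 1), *Pds5b* from -0.32 to -0.065 (NPC B/J replicate 2 and ESC J/B replicate 2), *Pds5a* from -0.47 to -0.18 and *Rad21* from -0.46 to -0.20. Over both crosses *Pds5a* was called without ESC B/J replicate 1 (-0.47) and *Rad21* without ESC J/B replicate 2 (-0.46). The log2 differences of the ratios kept their sign, from 0.92 to 1.17 for *Nipbl*/*Wapl*, -0.74 to -0.45 for *Ctcf*/*Rad21*, -0.47 to -0.31 for *Stag1*/*Stag2*, 0.14 to 0.50 for *Stag1* and *Stag2* over *Rad21*, -0.30 to -0.022 for *Pds5a*/*Pds5b* and 0.019 to 0.21 for *Smc1a*/*Smc3*, and the last 3 moved by over 1.5 times.

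Replicate numbers did not pair the libraries of the 2 stages: deviations from the group means correlated at 0.638 between ESC B/J and ESC J/B and 0.480 between NPC B/J and NPC J/B, but at 0.045 to 0.091 between stages. With a replicate block, *Rad21* was called over both crosses (-0.34, edgeR adjusted p = 0.0390), as was *Stag3* (-0.53), and the block changed no other call of the 10 genes. A block within each stage gave 6 calls over both crosses (0 higher, 6 lower, against 42.5% and 35.9% of all genes), adding *Rad21* (-0.34, edgeR adjusted p = 0.0289) and *Pds5a* (-0.32, edgeR adjusted p = 0.0113). In J/B the same block gave 6 calls, all lower (against 31.4% of all genes), and in B/J 4, all lower (31.8%). Libraries numbered 2 alone gave 7 calls (34.4% of all genes were lower), with *Stag2* at -0.036 and *Nipbl* at 0.020, and *Stag1* was at 0.081 among libraries numbered 1. The causes were not tested. Over the named genes other than *Fn1*, *Stmn2* and *Pax6*, 1106 gene-by-setting values kept direction and call, 42 lost the call, 23 gained one and 19 turned. The crosses, 1 line each, limit the comparison of crosses.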
